A study of Mus musculus with 288 samples.

Results

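Heart and skeletal muscle are both striated, and this comparison sets 24 heart libraries of mice kept in normoxia against 24 muscle libraries of mice kept in normoxia. The genes described were those that averaged 5 TPM or more (a share of a library's RNA corrected for transcript length and scaled to a fixed total) in either tissue, which gave 9298 genes of the 35904 listed in the tables. Of these, 7415 reached 5 TPM in both tissues, 551 in heart alone and 1332 in muscle alone. At the edge of the rule, Abhd13 (5.0008 TPM) and Lrwd1 (5.0019 TPM) were taken in, and Shfl (4.9997 TPM) and Abcc4 (4.99895 TPM) were not. The mice were wild-type C57BL/6J males, 8 weeks old, that stayed at room air for 7 days and were then moved to constant darkness. On the second day of darkness tissues were taken every 3 hours, which gave 8 time points of 3 replicates. A second set of mice lived through 7 days of intermittent hypoxia (IH, oxygen cycling between 21% and 8%) before the same days of darkness in normoxia, and gave 24 heart and 24 muscle libraries that the choice of genes did not use. The whole series holds 288 libraries from 6 tissues. The labels name the tissues only as heart and muscle, so neither the chamber of the heart nor the muscle that was taken is known. By the paper, the organs came from 3 mice per time point and condition, which implies that heart and muscle libraries shared mice. Which heart and which muscle library came from the same mouse is not recorded, and the main fit did not pair them. Each tissue came in a table of its own, so that the tissue cannot be told apart from any batch that went with that table.

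Cardiac and skeletal muscle use the same machine, a sarcomere in which myosin thick filaments pull on actin thin filaments when calcium binds troponin, but each builds it largely from its own genes. The heart contracts without pause and draws most of its energy from oxidation in mitochondria, and calcium entering through the L-type channel opens its ryanodine receptor. Fast skeletal fibres contract on nerve command, can draw on glycogen and glycolysis, and couple the membrane voltage sensor directly to the ryanodine receptor. Slow skeletal fibres share several sarcomere genes with the heart.

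For the tests, each library's TPM was divided by a median-of-ratios factor and the log2 of the scaled value plus 0.5 was fitted with limma on tissue alone. The fit took in all 13087 genes that averaged 1 TPM or more over the 48 libraries. A gene was called at a Benjamini-Hochberg adjusted p of 0.05 or less and a difference of 1.5-fold or more, and log2 differences are given as heart minus muscle. Levels in the text are TPM as deposited, with the lowest, median and highest of the 24 libraries, and log2 differences are on the scaled values. Because many leading genes were close to 0 in the other tissue, their log2 differences depend on the added 0.5 and are not folds of the RNA itself. Nothing in the labels says more of the replicates than their number, so the p-values measure the spread between these libraries. A few libraries held transcripts foreign to either tissue. In 2 heart libraries Dntt and Cd8a, genes of thymic T cells, were at 254 to 402 and 245 to 322 TPM, against at most 0.388 and 0.605 TPM in the other 22. The airway gene Scgb1a1 was at 361 to 1905 TPM in 4 heart libraries and at most 1.30 TPM in the rest, and at 218 TPM in 1 muscle library, which also held the most Myh6 (27.0 TPM) and Tnnt2 (37.0 TPM) of the muscle libraries. The neutrophil gene S100a9 was at 281 to 689 TPM in 5 muscle libraries and at most 20.9 TPM in the others. Gm19220, a processed pseudogene, was not foreign to muscle, with at least 12278 TPM in all 24 libraries (median 24443), but reached 319921 TPM in 1.

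At this threshold 1566 of the genes were higher in heart and 1918 were higher in muscle. Over all genes tested, 17.8% were called higher in heart and 17.7% higher in muscle. An 8-fold difference was reached by 137 genes in heart and 218 in muscle, against 1.11% and 1.67% of all genes tested. The libraries of the tissues did not overlap at all, on scaled values, for 652 genes higher in heart (7.01%) and 1305 higher in muscle (14.0%). Over all genes tested, these shares were 6.95% and 11.3%. Genes that entered through 1 tissue alone were bound to lean towards it. Among the 7415 genes at 5 TPM in both tissues, 1114 were higher in heart and 1161 in muscle, and 24 and 60 at 8-fold. The split of the calls followed the scaling. Mitochondrially encoded transcripts summed to a median of 344069 TPM in heart (205923 to 446099) and 172172 TPM in muscle (137791 to 214977), and the mean scaling factors of the tissues, heart minus muscle, differed by -0.38 on the log2 scale. Against TPM as deposited, scaling therefore moved the log2 differences of abundant genes up by 0.38 and those of genes near 0 in 1 tissue by less. Without scaling, 785 genes were higher in heart and 3383 in muscle, so the share of calls that lay in heart went from 44.9% to 18.8%. The 4 heart and 7 muscle libraries of that kind were then left out, a choice made after seeing the data. On scaled values again, the counts at 1.5-fold and 8-fold stayed within 1.5 times. There, 1117 genes in place of 652 did not overlap and were higher in heart. Such a count can hardly fall when libraries are left out, and with a replicate number left out it was 732 to 1278.

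**Figure D1:**
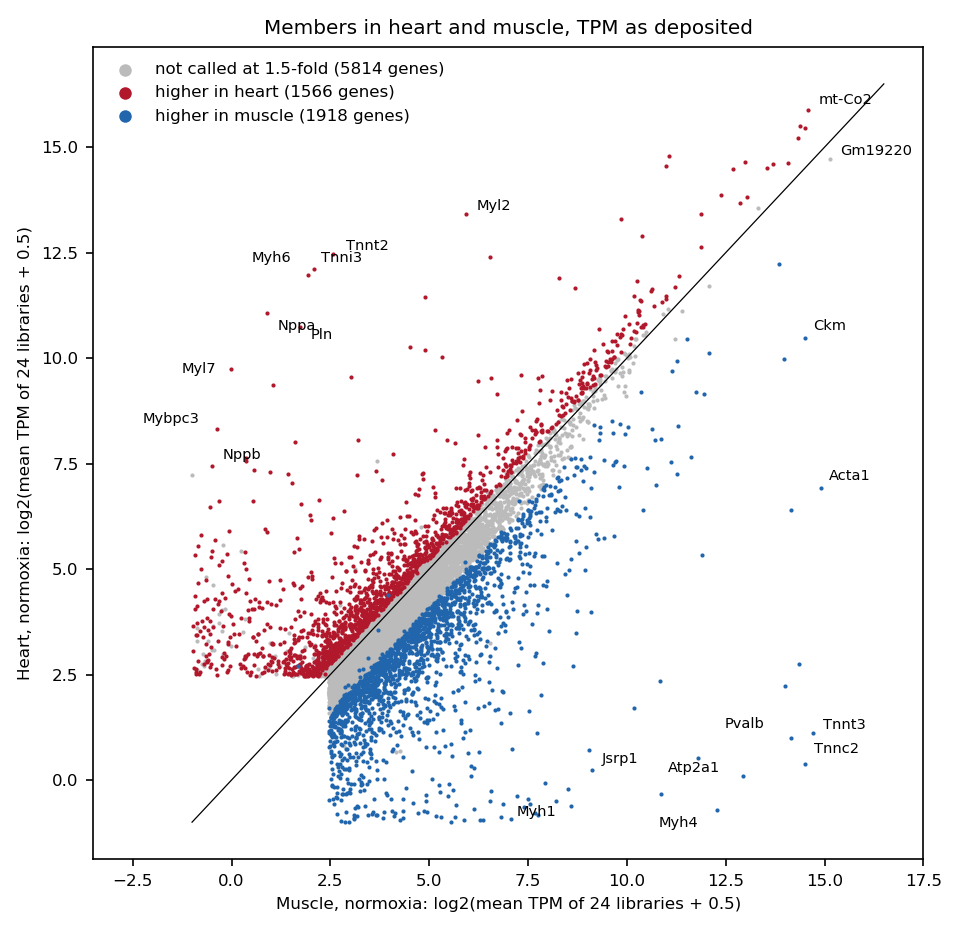
Mean TPM of the 9298 genes in muscle (horizontal) and heart (vertical), each as log2 of the mean of 24 libraries plus 0.5 with TPM as deposited; red genes were called higher in heart, blue genes higher in muscle, and the line marks equal levels. Myl2, Tnnt2, Tnni3 and Myh6 stand far above the line, Tnnt3, Tnnc2, Pvalb and Myh4 far below it, and the mitochondrial mt-Co2 and the predicted gene Gm19220 are high in both tissues.

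The 12 largest differences in heart among genes of at least 50 TPM were Tnni3, Myh6, Tnnt2, Nppa, Myl7, Pln, Mybpc3, Fhl2, Myl2, Nppb, Ptgds and Tnnc1. The 12 largest in muscle were Tnnc2, Tnnt3, Pvalb, Myh4, Atp2a1, Mylpf, Tnni2, Actn3, Myoz1, Myh1, Ampd1 and Jsrp1. For all 24 of these genes the libraries of the tissues did not overlap, with adjusted p by limma of at most 2.63e-27 for the heart genes and 3.08e-46 for the muscle genes. The genes were picked for large differences in these same libraries, so neither the lack of overlap nor the p-values are separate evidence. In the mice exposed to IH, 12 of 12 and 12 of 12 were called again in the same direction.

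The sequence before the start sites of the genes with an 8-fold difference was read for short motifs. RefSeq promoters on GRCm38.p6 were found for 103 of the 137 genes 8-fold higher in heart (136 promoters) and for 148 of the 218 genes 8-fold higher in muscle (192 promoters), and the 250 bases before each start were searched on both strands. The E-box form CAGCTG, which factors of the MyoD family bind, stood in 21.9% of the muscle promoters and 15.4% of the heart promoters, against 12.2% of the promoters of all genes described and 13.0% of all 32851 promoters. The letters AGATAA, a form of GATA factor sites, stood in 20.6% of the heart promoters and 5.21% of the muscle promoters, against 5.50% and 9.99%. Other forms of these sites were not searched. The MEF2 core TAAAAATA stood in 3.68% and 3.65%, against 1.37% of the promoters of all genes described and 2.45% of all promoters. The TATA box letters TATAAA stood in 17 of the 136 heart and 23 of the 192 muscle promoters, against 6.81% of the promoters of all genes described and 12.4% of all promoters. These shares are descriptions, and a match is not a bound site. The 4 promoters that follow were chosen, after the matches were seen, among the leading genes for holding a match and for a RefSeq start within 250 bases of the GENCODE gene start. Capitals mark matches and position -1 is the base before the start. Tnnt2 (chr1:135836084-135836333, plus strand) holds the E-box at -223 and -157 and the GATA letters, on the opposite strand, at -166. Nppa (chr4:148000472-148000721, plus strand) holds an E-box at -195 and the TATA letters at -9. Myh4 (chr11:67237562-67237811, plus strand) holds an E-box at -67 and the TATA letters at -31 and, further out, at -213 and on the opposite strand at -179. Atp2a1 (chr7:126463074-126463323, minus strand) holds an E-box at -55. No match of these 4 motifs was in the window of Tnni3, Myh6, Tnnc1 or Tnnc2. The RefSeq starts used for Tnni3, Myh6 and Tnnc2 lie inside their GENCODE genes. The windows of Tnni3 and Myh6 therefore fall wholly within the gene and that of Tnnc2 partly.
Tnnt2: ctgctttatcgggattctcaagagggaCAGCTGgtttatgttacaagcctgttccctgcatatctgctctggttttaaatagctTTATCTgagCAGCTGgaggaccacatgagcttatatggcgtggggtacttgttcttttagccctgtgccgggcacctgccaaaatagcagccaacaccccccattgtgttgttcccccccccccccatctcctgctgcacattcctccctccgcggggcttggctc
Nppa: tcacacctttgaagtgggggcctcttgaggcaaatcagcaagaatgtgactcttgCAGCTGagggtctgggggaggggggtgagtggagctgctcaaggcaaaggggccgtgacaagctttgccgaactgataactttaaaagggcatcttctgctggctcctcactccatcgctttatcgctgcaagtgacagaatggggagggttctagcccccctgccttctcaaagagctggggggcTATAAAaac
Myh4: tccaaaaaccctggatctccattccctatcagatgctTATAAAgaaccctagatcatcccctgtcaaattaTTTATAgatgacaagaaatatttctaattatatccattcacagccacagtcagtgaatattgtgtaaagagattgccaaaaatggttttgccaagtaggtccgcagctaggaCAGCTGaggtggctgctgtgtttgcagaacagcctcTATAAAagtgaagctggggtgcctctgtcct
Atp2a1: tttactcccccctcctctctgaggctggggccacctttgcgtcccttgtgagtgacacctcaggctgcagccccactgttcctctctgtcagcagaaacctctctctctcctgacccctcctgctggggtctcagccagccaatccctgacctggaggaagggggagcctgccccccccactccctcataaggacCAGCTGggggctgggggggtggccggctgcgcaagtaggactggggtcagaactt

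The thick filament is built of myosin heavy and light chains. Of the 24 tested genes of the list, 10 were higher in heart, 12 higher in muscle and 2 were not called. Myh6 (chromosome 14, GRCm38 54941921 to 54966927), the fast heavy chain of the adult mouse heart, lay between 2536 and 8589 TPM in heart (median 4389) and between 1.00 and 27.0 TPM in muscle (median 2.57). Its log2 difference was 10.70 ± 0.21 (SE, n = 24 and 24). Myh4 (chromosome 11, 67238029 to 67260446), the heavy chain of the fastest skeletal fibres, ran from 3293 to 7512 TPM in muscle (median 4784) and had a median of 0.0108 TPM in heart, where its highest library stood at 1.60 TPM. Its difference was -12.86 ± 0.11. Its neighbour Myh1 was at 204 to 596 TPM in muscle and at no more than 0.407 TPM in heart. The heavy chains belong to a multigene family whose reads kallisto divides among near-identical members, so that the split among them is uncertain, while the order of heart and muscle is not close. The light chains followed the same line. Myl2, the ventricular and slow-fibre regulatory chain, had a median of 11021 TPM in heart (6003 to 14817) and 46.2 TPM in muscle (4.32 to 190). Mylpf, its fast-fibre counterpart, had a median of 20724 TPM in muscle (13622 to 25250) and 3.41 TPM in heart (1.90 to 36.9). Mybpc3, cardiac myosin-binding protein C, was at 176 to 483 TPM in heart and at no more than 1.67 TPM in muscle, and Mylk3 and Mylk2, the cardiac and skeletal light-chain kinases, differed by 7.21 ± 0.12 and -8.46 ± 0.06. Myom1, an M-band protein, was alike in level, with medians of 207 TPM in heart and 241 TPM in muscle and a difference of 0.12 ± 0.10 that was not called.

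Of 20 thin filament genes, 6 were higher in heart and 10 in muscle, and the troponins held the largest values of the whole comparison. Tnnc2, fast skeletal troponin C (chromosome 2, 164777161 to 164779967), had a median of 23348 TPM in muscle (16754 to 26444) and 0.263 TPM in heart (0.0904 to 9.73), a difference of -14.37 ± 0.20. Tnnt3, fast troponin T, ran from 19215 to 30643 TPM in muscle and from 0.412 to 11.3 TPM in heart. Tnni3, cardiac troponin I (chromosome 7, 4518305 to 4524229), ran from 2241 to 6384 TPM in heart (median 3963) and from 1.12 to 27.1 TPM in muscle (median 1.94), a difference of 10.76 ± 0.20. Each of the troponin genes named here thus separated every heart library from every muscle library. Actin was less exclusive. Acta1, skeletal alpha-actin, was the most abundant transcript of muscle by median, at 29957 TPM (19853 to 40867), and was also read in heart at a median of 104 TPM (49.4 to 286). Actc1, cardiac alpha-actin, had a median of 2868 TPM in heart (1537 to 3984) and still 1033 TPM in muscle (547 to 2282), with overlapping libraries and a difference of 1.78 ± 0.15. Neb, the giant ruler of the skeletal thin filament, was at 411 to 836 TPM in muscle and at most 1.96 TPM in heart, and Nebl, its small cardiac relative, differed the other way by 5.65 ± 0.09. Tpm3 was not called (-0.01 ± 0.10).

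The Z-disc, which anchors the thin filaments, held 7 genes higher in heart and 16 higher in muscle of 28. Actn3, the fast-fibre alpha-actinin, was at 2453 to 4683 TPM in muscle and at most 3.09 TPM in heart, while Actn2, the form of all striated muscle, was read in both (medians of 236 TPM in heart and 100 TPM in muscle, overlapping). Myoz1 (-10.97 ± 0.08), Myoz3 (-6.32 ± 0.04) and Myot (-5.59 ± 0.09) were higher in muscle. Fhl2, a LIM-domain protein, had a median of 675 TPM in heart (346 to 807) and 1.37 TPM in muscle (1.05 to 5.07). Ankrd1, a stretch-responsive titin partner, and Csrp3, muscle LIM protein, were higher in heart by 6.75 ± 0.14 and 6.24 ± 0.16. Smpx and Nexn were not called, with medians of 181 and 246 TPM in heart and 215 and 249 TPM in muscle.

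Set against each other within a library, heart and skeletal forms of the same protein gave a share that needs no scaling between libraries. For 28 such pairs, most but not all of them a heart and a skeletal form, the first gene's TPM was taken as a percent of the pair's sum. The percent did not overlap between the tissues for 27 pairs, and for 15 pairs its median was over 95% in heart and under 5% in muscle. Tnnt2 made up 99.80% to 99.99% of Tnnt2 plus Tnnt3 in heart and 0.01% to 0.14% in muscle. For 22 pairs the first gene was called higher in heart and the second higher in muscle. The other 6 were of several kinds. Jph2, the junctophilin of the heart, was the larger part of Jph2 plus Jph1 in both tissues (median 95.3% in heart and 71.5% in muscle), and both genes were higher in muscle. Pln and Sln, the small inhibitors of the calcium pump, were both higher in heart, and their percent was the only 1 of the 28 to overlap. Tmod1 and Pgam1 were not called, and Eno1 and Gdf11 were higher in muscle like their partners. Eno3 (heart median of Eno1 11.6%), Pgam2 (Pgam1 6.84%) and Pygm (Pygb 34.7%), the muscle forms of enolase, phosphoglycerate mutase and glycogen phosphorylase, were the larger part in heart too.

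**Figure D2:**
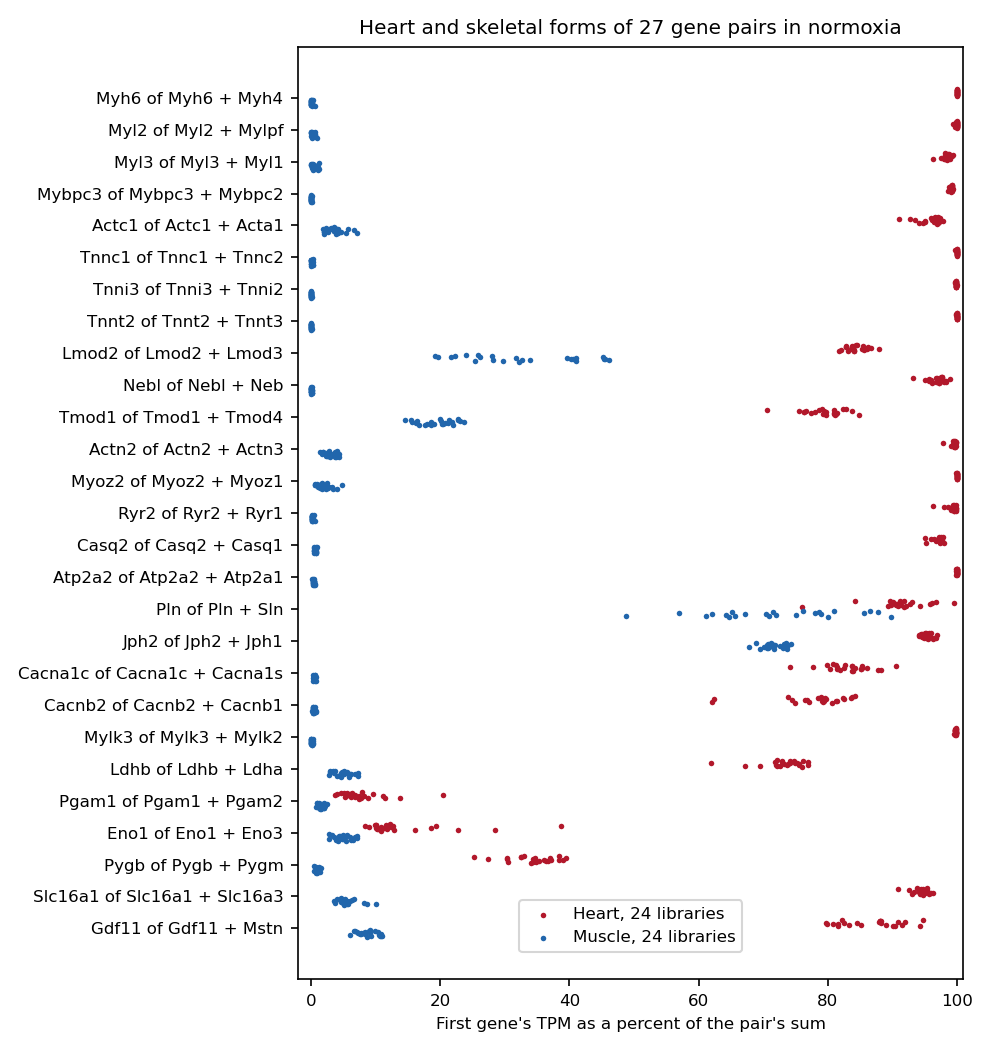
Percent of the pair's summed TPM taken by the first-named gene, for 27 of the 28 gene pairs, most of them a heart and a skeletal form. Each point is 1 library, red for 24 heart and blue for 24 muscle libraries in normoxia. The clouds lie at opposite ends for most pairs, overlap for Pln of Pln + Sln, and for Pgam1, Eno1 and Pygb the second gene is the larger part in both tissues.

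Calcium handling divided in the same way. Of 37 tested genes of excitation-contraction coupling, 10 were higher in heart and 24 in muscle, 8 and 16 of them by 8-fold. Ryr2, the cardiac ryanodine receptor, had a median of 32.4 TPM in heart (11.4 to 74.3) and 0.306 TPM in muscle (0.188 to 0.857). Ryr1 ran from 132 to 310 TPM in muscle and did not exceed 0.443 TPM in heart. The pumps that return calcium to the store, Atp2a2 in the heart and Atp2a1 in fast fibres, differed by 5.65 ± 0.10 and -12.64 ± 0.11. Atp2a1 had a median of 7786 TPM in muscle (5176 to 11041) and 0.440 TPM in heart (0.227 to 3.01). Pln, phospholamban, the pump's adrenergic brake in the heart, ran from 913 to 2239 TPM there and from 1.51 to 11.7 TPM in muscle. Pvalb, parvalbumin, a soluble calcium buffer of fast fibres, had a median of 18494 TPM in muscle (12260 to 20814) and 1.09 TPM in heart (0.595 to 9.09). The voltage sensor and store proteins of the skeletal triad were higher in muscle, with Cacna1s at -5.47 ± 0.07, Cacng1 at -8.23 ± 0.05, Casq1 at -8.17 ± 0.10 and Jsrp1 at -8.59 ± 0.09. Their cardiac counterparts were higher in heart, with Cacna1c at 3.80 ± 0.08, Cacnb2 at 3.65 ± 0.09 and Casq2 at 4.03 ± 0.12. Fkbp1a, which stabilises either ryanodine receptor, was not called (medians of 115 TPM in heart and 169 TPM in muscle).

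Among 27 sodium, potassium and chloride channel genes, 13 were higher in heart and 11 in muscle. Scn4a, the sodium channel of skeletal fibres, was at 63.8 to 187 TPM in muscle and at most 4.95 TPM in heart. Kcnip2, a subunit of the cardiac transient outward current, and Kcnj3 and Kcnj5, which form the potassium channel opened by acetylcholine in the heart, were higher in heart by 6.34 ± 0.10, 4.46 ± 0.10 and 4.46 ± 0.09. The M2 receptor Chrm2, which acts on that channel, was at 5.25 to 19.5 TPM in heart and at most 0.136 TPM in muscle. The beta-1 adrenergic receptor Adrb1 had a median of 6.54 TPM in heart and 1.52 TPM in muscle (2.20 ± 0.12), and the alpha-1B receptor Adra1b differed by 3.32 ± 0.10. In that list of 30 adrenergic, muscarinic and cyclic AMP genes, 12 were higher in heart and 8 in muscle (8 and 9 without scaling). At the neuromuscular junction, 2 of 13 genes were higher in heart and 7 in muscle, led by Chrne, the adult receptor subunit (median 8.61 TPM in muscle, at most 0.291 TPM in heart), and Ache, acetylcholinesterase (-3.35 ± 0.10).

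Genes that join heart cells end to end were mostly higher in heart. Of 19 genes of the intercalated disc and gap junction, 11 were higher in heart and 3 in muscle. Dsp, desmoplakin, ran from 20.2 to 90.0 TPM in heart and did not exceed 0.297 TPM in muscle (6.52 ± 0.09). Cdh2, N-cadherin, Pkp2, plakophilin, and Dsc2, desmocollin, were higher by 4.05 ± 0.09, 3.58 ± 0.10 and 3.50 ± 0.06. Flnc (-1.71 ± 0.10), Nrap (-1.20 ± 0.10) and Vcl (-0.89 ± 0.12), actin-linking proteins that also sit at the Z-disc or the fibre's end, were the 3 higher in muscle. Of 22 genes of the dystrophin complex and membrane repair, 2 were higher in heart, Popdc2 (2.02 ± 0.09) and Dysf (0.67 ± 0.09), and 11 in muscle, led by Ano5 (-5.45 ± 0.06) and Capn3 (-4.65 ± 0.19), both known from limb-girdle muscular dystrophy. Cav3 was not called.

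The transcription factors that lay down each lineage were higher in their own tissue. Of 16 tested cardiac factors, 14 were higher in heart and 0 in muscle, with a median log2 difference of 3.14 against 0.03 over all genes tested. Nkx2-5, a homeobox factor of the heart, ran from 20.7 to 52.1 TPM in heart and did not exceed 0.0758 TPM in muscle (6.44 ± 0.09). Hand2 was at 11.04 to 20.4 TPM against at most 0.106 TPM, and Gata4 had a median of 18.6 TPM in heart and 0.193 TPM in muscle. The skeletal list was the mirror image, with 16 of 17 higher in muscle, 0 in heart and a median of -2.97. Myf6, the member of the MyoD family kept in adult fibres, ran from 53.6 to 118 TPM in muscle and did not exceed 0.0713 TPM in heart (-7.09 ± 0.05). Tbx15, Lbx1 and Vgll2 followed at -6.58 ± 0.05, -5.95 ± 0.04 and -5.79 ± 0.08, and Zfp637 was not called. Position genes of the body axis were on the muscle side as well, with 16 of 20 tested Hox genes higher in muscle and 0 in heart. The cardiac, skeletal and Hox lists held 19, 21 and 39 genes, and those not tested fell under the filter. The lists summed to medians of 654, 28.3 and 10.5 TPM in heart and 25.4, 448 and 180 TPM in muscle. A gene that passed the filter through 1 tissue alone could hardly be called for the other. Hoxc10 was at 41.9 to 69.9 TPM in muscle and at most 0.0765 TPM in heart. Of 18 MEF2, SRF, TEAD and NFAT genes, which both tissues use, 2 were higher in heart and 9 in muscle. Mef2c was higher in muscle (median 122 TPM against 9.65 TPM, -3.06 ± 0.08), while Mef2a (-0.07 ± 0.06) and Srf (-0.50 ± 0.05) were not called.

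**Figure D3:**
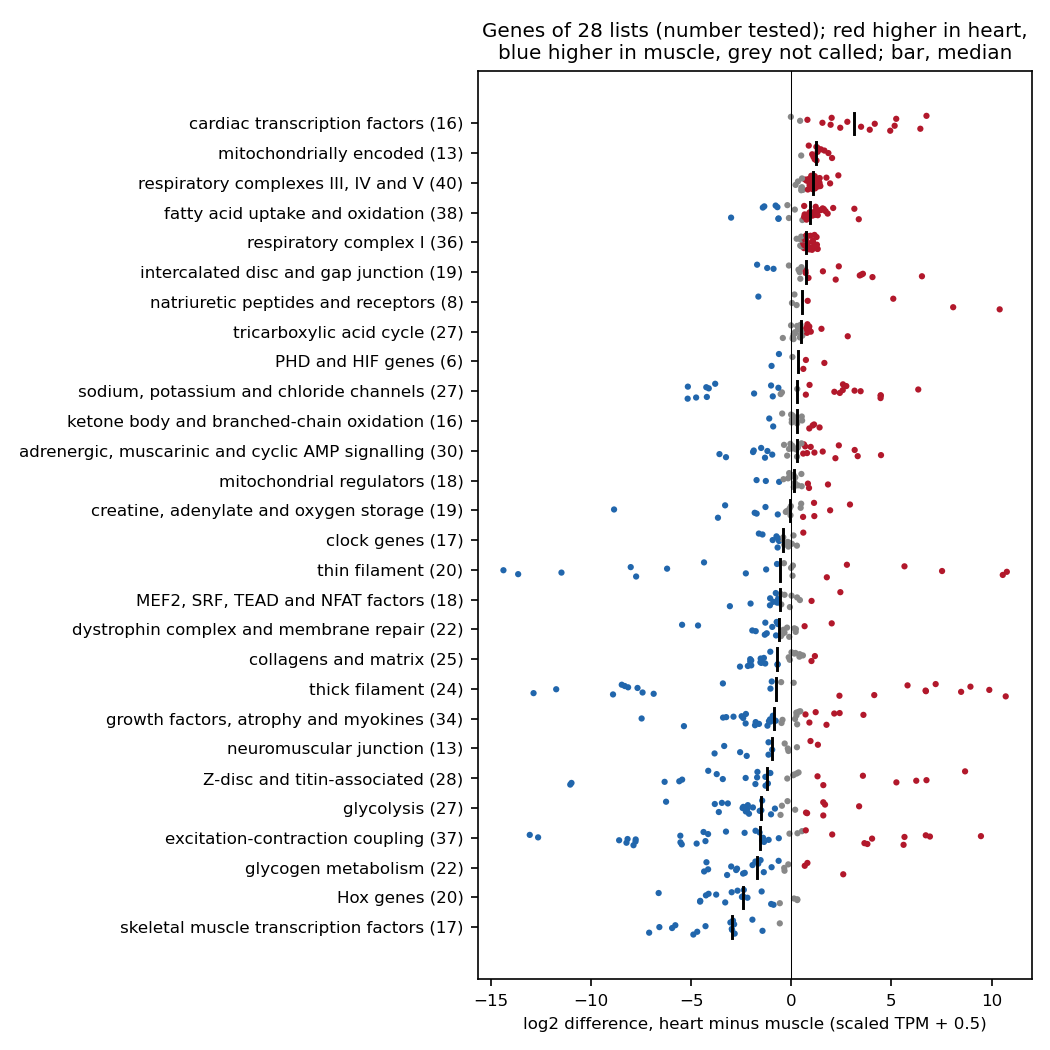
Log2 difference, heart minus muscle, of every tested gene in 28 lists (number tested in brackets); red points were called higher in heart, blue points higher in muscle, grey points were not called, and black bars are list medians. Sarcomere, calcium and channel lists spread far to both sides, while most genes of the respiratory complexes lie right of 0 and glycolysis and glycogen lists lie to the left.

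The heart also makes hormones. Nppa, atrial natriuretic peptide (chromosome 4, 148000722 to 148002079), had a median of 1962 TPM in heart (195 to 5795) and 1.08 TPM in muscle (0.575 to 5.39), and its neighbour Nppb, brain natriuretic peptide, had 158 TPM (54.6 to 352) and 0.136 TPM (0 to 0.844). Corin, the protease that matures them, differed by 5.09 ± 0.09. The receptors Npr1 (0.27 ± 0.09) and Npr2 (0.04 ± 0.08) were not called. Ptgds, prostaglandin D synthase, was at 110 to 365 TPM in heart and at most 4.04 TPM in muscle. Of 34 growth factor, atrophy and myokine genes, 7 were higher in heart and 19 in muscle. Mstn, myostatin, the brake on muscle growth, ran from 20.1 to 39.1 TPM in muscle and did not exceed 0.184 TPM in heart (-5.36 ± 0.05). Fndc5, the precursor of irisin, often called a muscle hormone, was higher in heart, with a median of 108 TPM (55.8 to 137) against 25.5 TPM (18.4 to 31.8), and so were Il15 (2.15 ± 0.10), Igf2 (1.76 ± 0.10) and Fgf16 (3.60 ± 0.09). Vegfa, the vessel growth factor, was not called (0.25 ± 0.11).

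Fuel genes pointed in opposite directions. Of 27 glycolysis genes, 17 were higher in muscle and 6 in heart, and of 22 glycogen genes 16 and 3, with list medians of -1.49 and -1.72. Aldoa, aldolase, had a median of 15957 TPM in muscle (11033 to 20449) and 993 TPM in heart (757 to 1374). Pygm, muscle glycogen phosphorylase, ran from 1570 to 3181 TPM in muscle and from 102.4 to 254 TPM in heart (-3.20 ± 0.09), and the kinase subunits that switch it on, Phka1 and Phkg1, differed by -4.35 ± 0.08 and -4.15 ± 0.08. The lactate genes showed the same division. Ldha, which favours making lactate, had medians of 1911 TPM in muscle and 268 TPM in heart, and Ldhb, which favours using it, had 90.9 and 726 TPM. Of the lactate carriers, Slc16a3, the exporter, was at 131 to 331 TPM in muscle and at most 2.68 TPM in heart (-6.25 ± 0.07), and Slc16a1 was higher in heart (1.60 ± 0.07). Hk1 and Pfkfb2 were among the 6 glycolysis genes higher in heart, and Hk2 was not called (-0.54 ± 0.09).

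Fat oxidation leaned to the heart, with 27 of 38 genes higher there, 7 in muscle and a list median of 0.93 (18 and 7 without scaling). Fabp3, the heart fatty acid carrier, had a median of 3292 TPM in heart (1847 to 4285) and 425 TPM in muscle (235 to 623). Hadhb, of the trifunctional enzyme, ran from 441 to 804 TPM in heart and from 114 to 306 TPM in muscle. Acot1, a thioesterase, and Plin5, a lipid droplet coat of oxidative tissue, were higher in heart by 3.15 ± 0.14 and 2.09 ± 0.11. Acsl6, Pnpla2, Ucp3 and Pdk2 were higher in muscle by -3.00 ± 0.09, -1.42 ± 0.11, -1.35 ± 0.12 and -0.78 ± 0.08 on the heart-minus-muscle scale. Of 8 adipocyte markers, 8 were higher in muscle, and their summed level was 2940 to 16514 TPM in muscle and 899 to 3911 TPM in heart. Their part in Pnpla2, Pparg (-1.27 ± 0.12) and Adrb3 (-3.26 ± 0.27), which fat cells express strongly, was not tested. Of 16 genes of ketone body and branched-chain oxidation, 4 were higher in heart, including Bdh1 (1.41 ± 0.17) and Oxct1 (0.90 ± 0.07), enzymes that oxidise ketone bodies in mitochondria, and 2 in muscle, including Bckdk (-1.10 ± 0.07).

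Genes of the respiratory complexes were mostly higher in heart, and how many passed depended on the scaling. Of 36 complex I genes, 29 were higher in heart and 0 in muscle, and of 40 genes of complexes III, IV and V, 33 and 0, with medians of 0.75 and 1.06. With TPM as deposited, the counts in heart were 9 and 25, again with 0 in muscle. Of 13 mitochondrially encoded genes, 12 were higher in heart, and 11 without scaling. The transcript mt-Co2 had a median of 57904 TPM in heart (34875 to 77433) and 23606 TPM in muscle (19498 to 33221). Atpif1, the inhibitor of the ATP synthase, stood out among the subunits at 2.35 ± 0.09 (medians of 278 and 72.8 TPM), followed by Cox7a1 at 1.94 ± 0.12 and Atp5h at 1.75 ± 0.09. In the tricarboxylic acid cycle 9 of 27 were higher in heart and 0 in muscle (3 and 1 without scaling). Idh2, mitochondrial isocitrate dehydrogenase, had the largest difference of the list, with 402 to 788 TPM in heart and 62.2 to 145 TPM in muscle (2.82 ± 0.09), while Mdh2 was not called (0.34 ± 0.07). Of 18 mitochondrial regulators, 3 were called in each direction, among them Ppargc1a in heart (0.89 ± 0.09) and Rxra in muscle (-1.73 ± 0.05), and Esrra was not called.

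Stores of oxygen and phosphate were divided. Mb, myoglobin, had a median of 7745 TPM in heart (3889 to 10138) and 1415 TPM in muscle (712 to 1867). Ckm, muscle creatine kinase, had 23138 TPM in muscle (15417 to 27962) and 1432 TPM in heart (749 to 2085). The purine nucleotide enzymes of fast fibres, Ampd1 (-8.84 ± 0.14) and Adssl1 (-3.30 ± 0.08), were higher in muscle, and Slc25a4, the main carrier of adenine nucleotides, was not called (medians of 2124 and 1941 TPM). Among genes of at least 200 TPM in both tissues, those nearest to no difference were Ftl1, Txnip, Eef2, Rpl4, Rpl36al, Hspb6, Actg1 and Fth1, with log2 differences from -0.02 to 0.03. Without scaling these 8 lay between -0.40 and -0.35.

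Markers of other cells were read for what else the tissue pieces held. Of 12 cardiomyocyte markers, 12 were higher in heart, and their sum was 10315 to 27933 TPM in heart and 14.6 to 108 TPM in muscle; of 12 skeletal myofibre markers, 12 were higher in muscle, with 98842 to 166618 TPM there and 853 to 2398 TPM in heart, most of it Ckm. Erythroid transcripts summed to a median of 57818 TPM in heart (25297 to 134537) and 4548 TPM in muscle (3150 to 10901). Epicardium and mesothelium markers were higher in heart (6 of 6), tendon (3 of 5 tested) and Schwann cell markers (4 of 7) mostly higher in muscle, and 7 of 8 macrophage markers were not called. Of 12 endothelial markers, 8 were higher in heart (4 in heart and 1 in muscle without scaling). In a piece of tissue, fewer cells of a type and less RNA per cell cannot be told apart. Collagens and matrix genes were mostly higher in muscle, 14 of 25 against 2, led by Col1a1 (median 181 TPM against 20.7 TPM), while the fibroblast proteoglycans Dcn and Lum were not called. Without the 11 libraries that stood apart, the counts of the thick filament, thin filament and Z-disc lists were the same, and 34 of 36 complex I genes were higher in heart.

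Within each tissue some genes varied far more than the rest. Myh7, the slow and beta-cardiac heavy chain, ran from 0.177 to 40.3 TPM over the 24 muscle libraries (median 11.2), and the 8 libraries lowest in Myh7 (at most 4.48 TPM) were also the 8 lowest in Tnni1, Tnnc1 and Myl2. In those 8 libraries Tnni1 lay between 0.707 and 4.12 TPM, and in the other 16 between 4.89 and 30.2 TPM. Myh4 showed no such order, with 3565 to 6354 TPM in the 8 and 3293 to 7512 TPM in the 16. The spread of Myl2, Myl3 and Tnnc1 in muscle was wide, with errors of their differences of 0.33, 0.29 and 0.32, yet even the highest muscle library (190 TPM for Myl2) lay under the lowest heart library (6003 TPM). In heart, Myl7, the atrial light chain, ran from 74.7 to 2291 TPM, and the 6 libraries lowest in it were also the 6 lowest in Sln, at 8.98 to 104 TPM against 132 to 438 TPM in the other 18. Of those 6 libraries, 5 were among the 6 lowest in Myl4 (55.5 to 653 TPM, against 553 to 2310 TPM in the other 18), 4 in Nppa (195 to 1968 TPM against 1511 to 5795 TPM) and 2 in Nppb, each with overlap. Only 1 was among the 6 lowest in Myh6, and Nkx2-5 stayed between 20.7 and 52.1 TPM. The amount of atrium or of slow muscle in each piece was not recorded. Myh7 itself had a median of 26.2 TPM in heart (12.3 to 73.0), and its tissues overlapped.

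**Figure D4:**
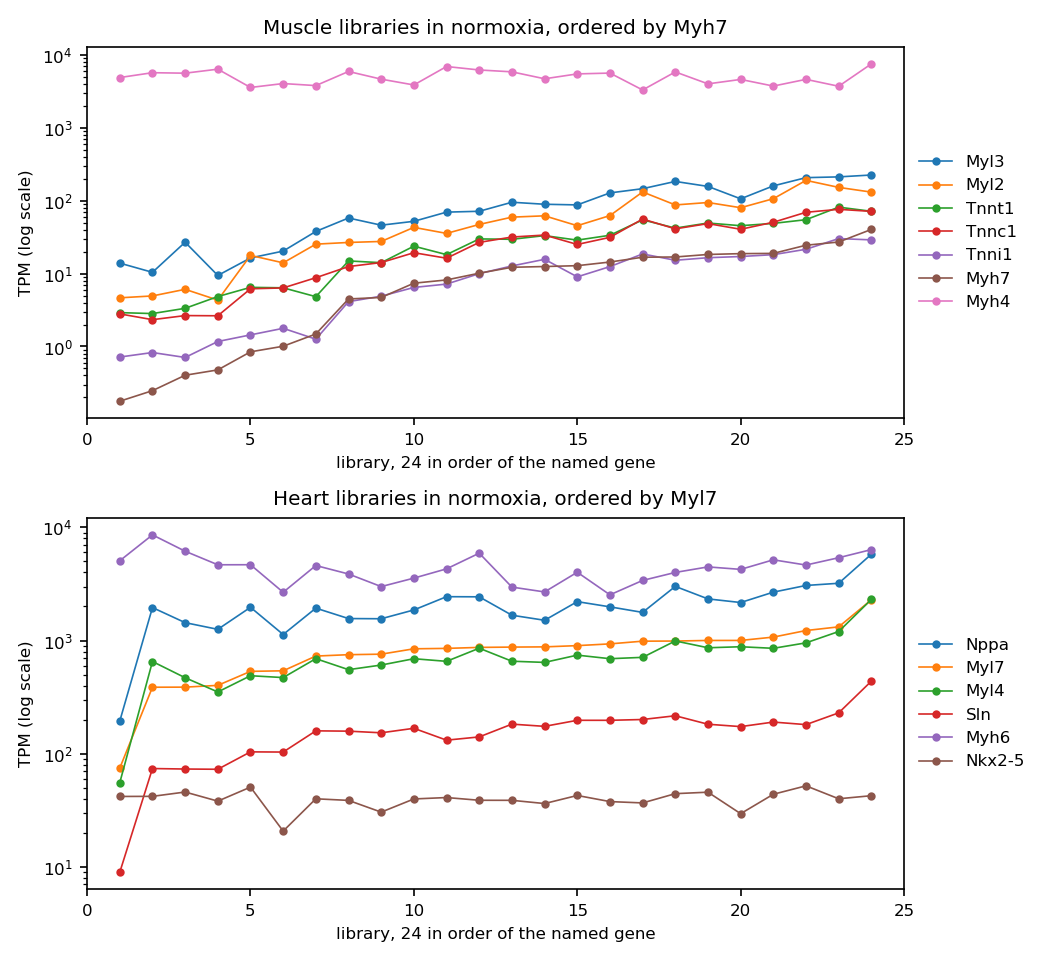
TPM on a log scale in each of the 24 muscle libraries ordered by Myh7 (upper) and each of the 24 heart libraries ordered by Myl7 (lower), 1 line a gene. Myl2, Myl3, Tnnc1, Tnnt1 and Tnni1 climb with Myh7 while Myh4 stays level, and Sln and, with some overlap, Myl4 climb with Myl7 while Myh6 and Nkx2-5 do not.

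The mean levels were set beside those of the 4 other tissues of the series in normoxia. Of the 218 genes 8-fold higher in muscle, 179 (82.1%) had their highest mean of all 6 tissues in muscle. Of the 137 genes 8-fold higher in heart, 78 (56.9%) had it in heart, 22 in cerebellum, 18 in lung, 13 in liver and 6 in kidney. Over all genes described, 13.5% had their highest mean in muscle and 4.26% in heart. These means are TPM as deposited, from a table for each tissue, and no test was run on them.

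The mice exposed to IH, which the choice of genes did not use, gave the same comparison in other animals. There, 1492 of the genes were higher in heart (16.1%) and 1741 in muscle (18.7%). Over all 13065 genes tested, 16.9% were called higher in heart and 17.1% higher in muscle. Of the 3484 genes called in normoxia, 2755 (79.1%) were called after IH in the same direction and 10 in the opposite one. Of the 355 genes at 8-fold, 317 (89.3%) were at 8-fold again. Among the 10, 9 were predicted genes with Gm symbols and the last, named here after its values were seen, was Tmem38b, a cation channel of the calcium store (-1.20 in normoxia and 0.85 after IH). Tested directly over the 96 libraries, the heart-muscle difference itself differed between IH and normoxia for 289 of the genes, and 4.16% of all genes tested were called. Of the 289, 85 had predicted-gene, Rik or pseudogene symbols. Genes named above for another reason included Vegfa, whose difference went from 0.25 in normoxia to -0.74 after IH (change of -0.99 ± 0.14, adjusted p by limma = 3.27e-08), and Actc1, whose difference went from 1.78 to 2.73. Col1a1 and Col1a2 went from -2.56 to -1.81 and from -2.17 to -1.41. Actc1 was not called without replicate 3 (adjusted p by limma = 0.104), nor Col1a1 without replicate 1 (0.0830). Of 24 thick filament genes 2 were called, and of the respiratory lists 0. Of 25 collagen and matrix genes 7 were called, with 3 of 6 epicardium and mesothelium markers, 2 of 8 fibroblast markers and 2 of 8 smooth muscle and pericyte markers, and the part of these cells in Col1a1 and Col1a2 was not tested. Heart libraries listed 20316 to 22793 genes above 0 after IH and 22988 to 28331 in normoxia, with no overlap, and the part of this in the 289 genes was not tested. Without replicate 3 the count was 470.

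Few genes were called for a different course over the day in the 2 tissues. A curve with a period of 24 hours was fitted in each tissue, and the curves were compared by limma's F test. The curves differed for 9 of the genes (0.0917% of all genes tested were called), and the 6 with the smallest adjusted p were Arrdc3, Fbxo21, Bhlhe41, Ppp1r27, Myod1 and Pmepa1. Arrdc3, an arrestin-domain protein, rose in muscle from a mean of 12.4 TPM at 1:30 to 32.2 TPM at 16:30 (n = 3 each) and stayed between means of 7.16 and 9.24 TPM in heart. Fbxo21, a ubiquitin ligase subunit, had its highest mean in muscle at 7:30 (22.8 TPM) and stayed between means of 6.14 and 8.75 TPM in heart. Myod1 and Ppp1r27 were at most 0.0710 and 1.56 TPM in any heart library, so that their tests rest on muscle. Bhlhe41, a repressor of the clock, peaked in heart at 11.4 h and in muscle at 7.36 h by the fitted curves, and was higher in muscle throughout (1.62 lower in heart on the log2 scale). This count was not stable. It was 2 with TPM as deposited and 0 to 4 with a replicate number left out. It was 15 without the 11 libraries that stood apart and 21 without the 2 heart libraries of lowest correlation. Of the 17 clock genes of the study, 1 was higher in heart, Ciart, and 7 in muscle, and Bhlhe41 was the only 1 whose curve differed. Ciart (0.60) was not called with TPM as deposited (0.29), where 0 clock genes were higher in heart and 10 in muscle, nor without the 11 libraries that stood apart, where 0 and 6 were. Dbp, a clock output factor, ran from 7.30 to 136 TPM over the day in heart and from 13.7 to 186 TPM in muscle, with the highest means at 10:30 in both (106 and 156 TPM). Arntl, the clock's activator, was lowest at 13:30 in heart (mean 0.475 TPM) and at 10:30 in muscle (mean 1.98 TPM).

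**Figure D5:**
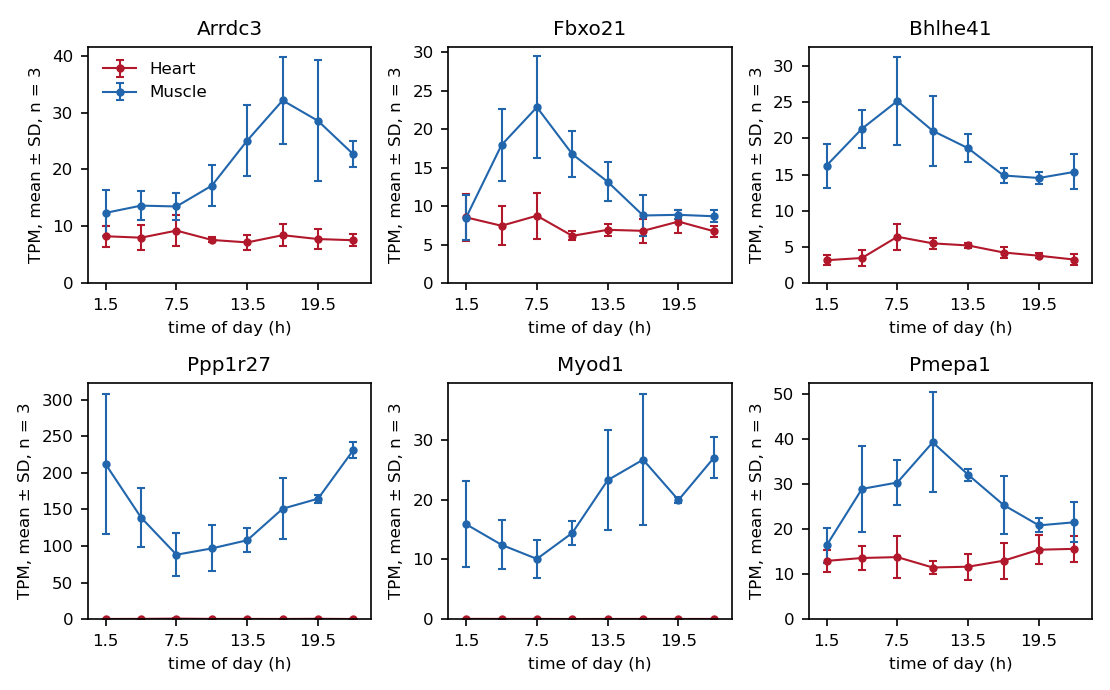
Mean ± SD of TPM (n = 3) at 8 time points in heart (red) and muscle (blue) for the 6 genes with the smallest adjusted p of tissue by time of day. Muscle levels of Arrdc3 are highest at 16:30 and those of Fbxo21 and Bhlhe41 at 7:30. Heart levels of Bhlhe41 are also highest at 7:30, while Ppp1r27 and Myod1 lie near 0 in heart.

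Of the oxygen-sensing genes that the study followed, the prolyl hydroxylases (Egln1 to Egln3) and the HIF subunits they act on or that pair with these, 6 of 7 were tested. Egln3 was higher in heart, with 9.25 to 21.0 TPM against 3.28 to 8.23 TPM in muscle (1.65 ± 0.08), and so were Hif1a (0.73 ± 0.05) and Egln1 (0.60 ± 0.07). Egln2 was higher in muscle, with a median of 83.8 TPM against 31.7 TPM (-0.98 ± 0.05), as was Arnt (-0.61 ± 0.06), which passed 1.5-fold narrowly and was not called with a pseudocount of 2, with upper-quartile scaling, with the filter at 5 TPM or without replicate 1. Epas1 was not called (medians of 53.5 TPM in heart and 72.7 TPM in muscle). Without scaling, Egln1 and Hif1a were not called (0.22 and 0.37), and Egln1 was not called without the filter or without replicate 1 or 2 either. Hif3a had medians of 0.238 TPM in heart and 0.421 TPM in muscle and fell under the filter.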

How the data were processed

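RNA from heart and muscle was sequenced after directional library preparation. Per the labels, bcl2fastq, FastQC 0.11.3, kallisto, DESeq2 and the build mm10 were named. The authors quantified transcripts with kallisto, and the deposited tables give TPM per gene, 1 table for each tissue and condition. TPM keeps no depth, so the number of reads behind a value is unknown and no counting interval is given. kallisto divides reads among near-identical genes, so the split within such families is uncertain.

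Libraries were scaled by the median of ratios over 12747 genes above 0 in all of them, 0.5 was added, and log2 values were fitted with limma 3.58.1 (trend) in R 4.3.3. Tables were made with pandas 2.3.3 and figures with matplotlib 3.10.9 in Python 3.11.15. Genes that averaged 1 TPM or more were tested, with Benjamini-Hochberg adjustment over all of them. The scripts were tested on simulated data. Heart and muscle in normoxia, the same tissues after IH, the change of their difference with IH, and 24-hour curves by tissue were compared. Alternatives were other scalings, pseudocounts and filters, a time term, a replicate block, and left-out replicates, time points or libraries.

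The genes described and the gene lists were chosen with earlier results of these data known. Named genes were the 12 largest differences in each direction with at least 50 TPM, both genes of 28 pairs, up to 4 called genes in each direction and 2 not called genes per list, the study's clock and oxygen-sensing genes, the 10 most abundant genes of each tissue, the 6 smallest p for time of day and the 8 smallest differences at 200 TPM or more. Other genes of the lists were named after their values were seen. Some genes of the lists are counted but not reported by name here.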

Additional observations from a re-analysis of the deposited data

Results flagged for a closer look

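The heart-muscle difference itself differed between IH and normoxia, by the limma test of that change over 96 libraries, for 11 of the genes named by the rule. On the log2 scale, the change after IH was 0.96 for Actc1, 0.76 for Adcy9, 0.75 for Col1a1, 0.76 for Col1a2, 0.64 for Nppb, 0.71 for Npr3, 0.85 for Ptgds and 0.62 for Scn4a. It was -0.73 for Myoz2, -0.72 for Pfkfb2 and -0.99 for Vegfa. Col1a2, Pfkfb2 and Vegfa kept their call in each alternative run. Adcy9 fell under 1.5-fold without replicate 1 (0.46) and with a pseudocount of 2 (0.52), and Ptgds without the 11 libraries that stood apart (0.57). Nppb was not called without those 11 libraries (0.30, adjusted p by limma = 0.315), without the 2 heart libraries of lowest correlation (0.0701), without 2 muscle libraries that stood apart (0.0683), or without replicate 1, 2 or 3 (0.0564, 0.204 and 0.0701). Myoz2 was not called without replicate 1 (-0.43, adjusted p by limma = 0.482), without replicate 3 (0.117), with the replicate block (0.0657) or with TPM as deposited (0.0504). Actc1 was not called without replicate 3 (adjusted p by limma = 0.104), nor Col1a1 without replicate 1 (0.0830). Npr3 and Scn4a were not called without replicate 1 (adjusted p by limma = 0.290 and 0.228), and Scn4a fell under 1.5-fold with a pseudocount of 2 (0.45) and without the 2 heart libraries of lowest correlation (0.55).

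The 24-hour curve differed between the tissues for Arrdc3 (adjusted p by limma = 0.000329), Fbxo21 (0.000437), Bhlhe41 (0.000902), Ppp1r27 (0.000902), Myod1 (0.00933) and Pmepa1 (0.00969). Each of the 6 had an adjusted p above 0.05 without replicate 2. So did all but Bhlhe41 without replicate 1, all but Arrdc3 with TPM as deposited, and Bhlhe41 and Myod1 without replicate 3.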

How the results depend on the processing

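Of 186 counts under alternatives, 168 stayed within 1.5 times, and 222 of 268 named genes kept their call and direction in every alternative run. With TPM as deposited, 785 genes were higher in heart and 3383 in muscle, 396 did not overlap and were higher in heart, 882 and 3007 were called after IH, and 2 differed by time of day. With a pseudocount of 2, 213 genes passed 8-fold, 75 in heart and 138 in muscle. Leaving out a replicate number gave 2137 to 3039 genes without overlap (732 to 1278 higher in heart), 207 to 470 whose difference changed with IH, and 0 to 4 by time of day. Without the 11 libraries that stood apart, 1117 did not overlap and were higher in heart and 15 differed by time of day, and without the 2 heart libraries of lowest correlation 21 did. Counts of genes without overlap can hardly fall when libraries are left out. Heart and muscle libraries of the same time and number correlated at a median of 0.0665 over 24 pairs (-0.168 to 0.380), 11 of them over 0.1. Those of the same time and another number correlated at a median of -0.0462 over 48 pairs (-0.347 to 0.248), 8 of them over 0.1. Whether libraries of the same number came from the same mouse is not recorded, and the numbers were not taken to pair the libraries. With the replicate block, 3491 genes were called, 289 became 288 for the change with IH, and 9 became 8 by time of day. Among genes named above, Cav3, Hk2, Srf, Tmod1, Zfp637, Dbp, Fbxo21 and Pmepa1 were called higher in muscle with TPM as deposited, and Ciart, Dysf, Egln1, Hif1a, Npr3, Oxct1 and Ppargc1a were no longer called higher in heart. These changes came with leaving out the scaling, whose factors, heart minus muscle, differed by -0.38 on the log2 scale. The cause of that difference between the factors was not tested. Depth is unknown from TPM, so levels near 0 have no limit of detection here.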
